A study of Mus musculus with 18 samples.

Results

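The 10 genes described here encode the machinery by which a cell shows peptides on MHC class I molecules. They were chosen by symbol: the class I heavy chains H2-K1 and H2-D1, their light chain B2m, the peptide transporter subunits Tap1 and Tap2, the loading factor Tapbp, the transactivator Nlrc5, and the induced proteasome subunits Psmb8, Psmb9 and Psmb10. All 10 were found among the 55573 genes of the deposited table, and 9 of them were among the 15216 genes tested. Total RNA was sequenced from cultured mouse neural progenitor cells of the cortex on a C57BL/6 background, the dividing cells that form cortical neurons and glia. In the Upf2 Trp53 Cre group, cells with floxed alleles of both Upf2 and Trp53 received AAV9-Cre, an adeno-associated virus that delivers Cre recombinase. In the Upf2 Cre group, cells with floxed Upf2 alone received the same virus. In the Upf2 mock group, cells with floxed Upf2 alone received an equal volume of medium. Upf2 encodes a factor of nonsense-mediated mRNA decay (NMD) and Trp53 encodes p53, and the study's title concerns the interplay of NMD with TRP53 in keeping progenitors and in the size of the brain. Every group held 6 libraries labelled as biological replicates, numbered 3, 4, 5, 6, 8 and 9, and all cells were harvested 72 h after infection with the medium changed at 14 h. Doubly floxed cells without virus and cells given a virus without Cre are not analysed here. The effects of virus, Cre and the Upf2 deletion therefore cannot be told apart, and neither can those of the Trp53 deletion and the cell line.

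MHC class I molecules carry short peptides from proteins made inside the cell to its surface, where cytotoxic T cells and natural killer cells read them. The proteasome cuts proteins into peptides, TAP pumps the peptides into the endoplasmic reticulum, and tapasin (Tapbp) with calreticulin and other chaperones helps them bind a heavy chain paired with beta-2 microglobulin (B2m). Interferons raise most of these genes together, through IRF and STAT factors and through NLRC5. They also switch on 3 catalytic proteasome subunits (Psmb8, Psmb9 and Psmb10) that replace constitutive ones and turn the proteasome into the immunoproteasome. Cells of the developing brain are known for low class I levels.

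The promoters of the heavy and light chains hold letters that match elements known for this control, so stretches of them are given first, with the interferon-type element, the kappa B element and the CCAAT box in capitals. They are read 5′ to 3′ from the RefSeq promoter table (GRCm38.p6), in which 8 of the 10 genes were found. The H2-K1 stretch lies at chr17:34000348-34000483 on the minus strand, the H2-D1 stretch at chr17:35262923-35262952 on the plus strand, and the B2m stretch at chr2:122147537-122147685 on the plus strand. The Psmb8 stretch lies at chr17:34198088-34198116 on the plus strand, and its capitals mark a gamma-activated sequence, an element of interferon gamma responses.
H2-K1: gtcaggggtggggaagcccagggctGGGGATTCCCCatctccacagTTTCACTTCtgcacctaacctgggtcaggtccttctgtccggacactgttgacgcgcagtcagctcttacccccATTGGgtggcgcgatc
H2-D1: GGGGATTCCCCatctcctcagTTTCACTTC
B2m: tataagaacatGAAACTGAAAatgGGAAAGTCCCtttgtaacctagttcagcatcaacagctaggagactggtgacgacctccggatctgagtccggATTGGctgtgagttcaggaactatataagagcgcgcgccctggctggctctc
Psmb8: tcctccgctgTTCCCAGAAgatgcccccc

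Motifs were searched on both strands from 250 bases before to 50 bases after each start. The interferon-stimulated response element core, GAAA repeated after any 2 bases, was found in B2m alone of the 8 genes and in 3.44% of all 32851 promoters of that length. Its shorter form GAANNGAAA, which was added after the sequences had been seen, was found in H2-K1 and H2-D1 and in 7.52% of promoters. The kappa B consensus was found in H2-K1, H2-D1 and B2m and in 4.51% of promoters, and H2-K1 and H2-D1 each hold 2 matches that overlap. The gamma-activated sequence TTCNNNGAA was found in Psmb8 alone, against 8.3% of promoters. CCAAT was found in 6 of the 8 genes and in 37.4% of promoters, and the p53 half-site in none of the 8 and in 8.36% of promoters. These matches describe letters in a window and not binding.

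TPM, an abundance scaled by gene length to a fixed sum per library, hold no read counts. Sequencing depth is therefore unknown, and no counting interval can be given. Differences are on the log2(TPM + 1) scale with their standard error (SE), and a gene is said to have risen or fallen where limma gave an adjusted p under 0.05. That scale understates the change of genes near or below 1 TPM. The libraries each held 14019 to 15210 genes at 1 TPM or more, and in Upf2 Cre replicate 6 a single gene, Gm23935, held 14.1% of all TPM. The 10 neural progenitor markers of the labelled cell type were abundant in every library, with summed medians of 6163 TPM (4886 to 10874) in Upf2 Trp53 Cre, 4795 TPM (3716 to 10481) in Upf2 Cre and 10380.1 TPM (5215 to 13909) in Upf2 mock. Trp53 averaged 16.5 ± 1.69 TPM in Upf2 Trp53 Cre, 138 ± 35.0 in Upf2 Cre and 104 ± 18.2 in Upf2 mock (SD, n = 6), and Upf2 averaged 33.8 ± 9.03, 20.2 ± 4.82 and 11.1 ± 2.98 TPM in the same groups. Upf2 was thus higher, not lower, in both Cre groups than in Upf2 mock (log2 difference 1.52 in Upf2 Trp53 Cre and 0.82 in Upf2 Cre, exact permutation p = 0.0022 and 0.0043, adjusted p = 0.0043 and 0.0065 over 6 tests). Gene-level TPM also count exons outside a floxed segment, so they are no measure of the deleted segment, and each group keeps its labelled name. The libraries numbered 3 stood apart for these genes: replicate 3 was the lowest or highest of its group for 7 of the 10 genes in Upf2 Trp53 Cre, 8 in Upf2 Cre and 8 in Upf2 mock. Counts of calls without those 3 libraries are given beside the main ones.

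Several class I genes were higher in each Cre group than in Upf2 mock, and none passed the test as lower with all libraries and no further term in the fit. With the replicate number as a block, 6 class I genes rose and 1, B2m, fell in Upf2 Cre against Upf2 mock. In that fit 22.1% of all tested genes rose and 30.8% fell. In cultures sequenced whole, fewer cells of a type and less RNA per cell cannot be told apart. Against Upf2 mock, Upf2 Trp53 Cre had 4 of the 9 tested genes higher (H2-K1, H2-D1, Psmb8 and Psmb10) and 0 lower, where 11.5% of all tested genes passed, 10.4% higher and 1.09% lower. Upf2 Cre had 6 of 9 higher than Upf2 mock (H2-D1, Tap1, Tap2, Tapbp, Psmb9 and Psmb10) and 0 lower, where 40.7% of all tested genes passed, 16.5% higher and 24.2% lower. Between the Cre groups, H2-D1 and Psmb8 were higher and Tap1 was lower in Upf2 Trp53 Cre, where 14.2% of tested genes passed, 11.8% higher and 2.46% lower. The median log2 difference of the 9 genes was 0.54 for Upf2 Trp53 Cre against Upf2 mock and 0.51 for Upf2 Cre against Upf2 mock, against 0.08 and −0.12 over all tested genes. Between the Cre groups it was 0.02, against 0.25 over all tested genes. Both comparisons with mock use the same 6 mock libraries. Without the libraries numbered 3 the counts were 5 higher and 0 lower, 6 higher and 1 lower, and 4 higher and 1 lower in the same order of comparisons. In that setting 18.9% of all tested genes were higher and 4.47% lower for Upf2 Trp53 Cre against Upf2 mock, 25.5% and 33.3% for Upf2 Cre against Upf2 mock, and 28.0% and 8.71% between the Cre groups. With any 1 library left out, 2 to 5, 2 to 7 and 3 to 5 of the 9 genes passed in either direction, in the same order. Of the 15216 tested genes, 1335 to 2260, 4527 to 8278 and 598 to 5514 passed in those fits. With only the compared groups in the fit, 3 of 9 rose and 0 fell in Upf2 Cre against Upf2 mock. There 2065 of the 15216 tested genes rose and 3030 fell. Median-ratio scaling moved the median of all tested genes to −0.06, −0.03 and 0.02, and left 2 higher, 6 higher, and 1 higher and 1 lower. With that scaling 6.40%, 20.2% and 2.00% of all tested genes were higher and 3.15%, 20.9% and 4.78% lower in the same order. These shares stand beside every later count with median-ratio scaling. Of all calls for Upf2 Trp53 Cre against Upf2 mock, 90.5% were higher as deposited and 67.0% with that scaling, and between the Cre groups 82.7% and 29.6%. Differences above the median of all tested genes are therefore given beside the main ones.

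**Figure D1:**
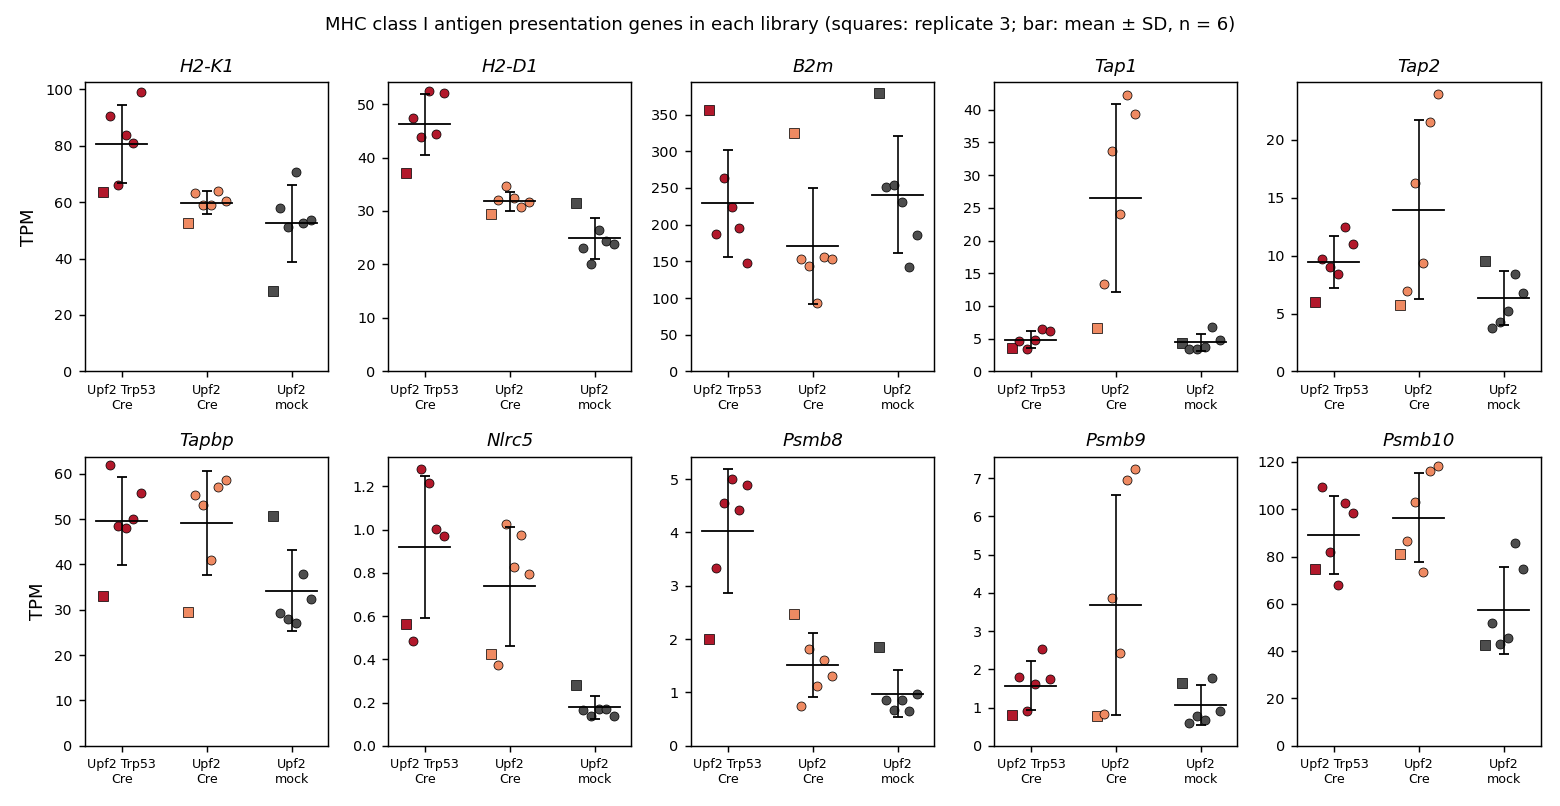
TPM of each of the 10 genes in every library of the 3 groups, from 0 upward on a separate axis for each gene, with the group mean ± SD (n = 6) and squares for replicate 3. H2-D1 and Psmb8 sit highest in Upf2 Trp53 Cre, Tap1 sits highest in Upf2 Cre, and Nlrc5 is at or under 0.281 TPM in all Upf2 mock libraries.

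Both heavy chains were higher in Upf2 Trp53 Cre than in Upf2 mock. H2-D1 (ENSMUSG00000073411.11; mm10 chromosome 17, 35262730 to 35267499, plus strand), which encodes a class I heavy chain that binds the peptide, ran from 37.2 through a median of 45.9 to 52.4 TPM in Upf2 Trp53 Cre. It ran from 29.4 through 31.8 to 34.7 TPM in Upf2 Cre and from 20.1 through 24.2 to 31.5 TPM in Upf2 mock. All 6 Upf2 Trp53 Cre libraries lay above all libraries of the other groups, while Upf2 Cre overlapped Upf2 mock through mock replicate 3. The log2 difference from Upf2 mock was 0.87 ± 0.13 (SE) in Upf2 Trp53 Cre (limma adjusted p = 0.00011) and 0.35 ± 0.13 in Upf2 Cre (limma adjusted p = 0.037), or 0.79 and 0.47 above the median of all tested genes. Upf2 Trp53 Cre exceeded Upf2 Cre by 0.52 ± 0.13 (limma adjusted p = 0.017), 0.27 above that median. This last call was lost under median-ratio scaling (0.24, limma adjusted p = 0.24) and quantile normalization (0.33, limma adjusted p = 0.14). The Upf2 Cre call was lost without any one of Upf2 Cre replicates 5, 6, 8 and 9 or mock replicates 4, 5 and 9, at 0.29 to 0.36 (limma adjusted p from 0.058 to 0.095). It was also lost with only the compared groups in the fit (limma adjusted p = 0.073).

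H2-K1 (ENSMUSG00000061232.16; chromosome 17, 33996017 to 34000347, minus strand), the other class I heavy chain, ran from 63.5 through a median of 82.4 to 99.0 TPM in Upf2 Trp53 Cre. It ran from 52.5 through 59.8 to 64.1 TPM in Upf2 Cre and from 28.5 through 53.2 to 70.7 TPM in Upf2 mock. The groups overlapped: Upf2 mock replicate 6 lay above the lowest 2 Upf2 Trp53 Cre libraries. H2-K1 rose by 0.64 ± 0.18 in Upf2 Trp53 Cre against Upf2 mock (limma adjusted p = 0.020), 0.56 above the median of all tested genes. The call was lost without Upf2 Trp53 Cre replicate 9 (0.58, limma adjusted p = 0.059), under median-ratio scaling (0.48, limma adjusted p = 0.12) and under quantile normalization (0.56, limma adjusted p = 0.051). Upf2 Cre differed from Upf2 mock by 0.23 ± 0.18 (limma adjusted p = 0.30). Upf2 Trp53 Cre differed from Upf2 Cre by 0.41 ± 0.18 (limma adjusted p = 0.11), which passed without mock replicate 3 (0.41, limma adjusted p = 0.033) and without the libraries numbered 3 (0.44, limma adjusted p = 0.012). The longest coding transcripts of H2-K1 and H2-D1 in GENCODE M21 are 88.4% identical over 1515 aligned bases, and each is over 88% identical to those of H2-Q4 and H2-Q7. How the authors' counting split reads between such copies is not given in the sources used here, so the 2 heavy chain levels are uncertain to that extent. Within a library, H2-K1 made up 60.2 to 65.6% of the summed TPM of both heavy chains in Upf2 Trp53 Cre, 63.0 to 67.6% in Upf2 Cre and 47.5 to 72.8% in Upf2 mock, where the lowest share was that of replicate 3.

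B2m (ENSMUSG00000060802.8; chromosome 2, 122147686 to 122153083, plus strand), the light chain of every class I molecule, was the most abundant of the 10 genes per length in all 18 libraries. It ran from 147 through a median of 209.8 to 356 TPM in Upf2 Trp53 Cre, from 93.8 through 153 to 325 TPM in Upf2 Cre, and from 142.8 through 241 to 379.5 TPM in Upf2 mock. In each group the highest library was replicate 3, and the groups overlapped. B2m did not pass the test in any comparison with all libraries and no further term in the fit: the log2 difference was −0.07 ± 0.27 for Upf2 Trp53 Cre against Upf2 mock (limma adjusted p = 0.91), −0.53 ± 0.27 for Upf2 Cre against Upf2 mock (limma adjusted p = 0.11) and 0.47 ± 0.27 between the Cre groups (limma adjusted p = 0.22). Without Upf2 Cre replicate 3, the value for Upf2 Cre against Upf2 mock was −0.74 (limma adjusted p = 0.013) and that between the Cre groups 0.67 (limma adjusted p = 0.033). Without mock replicate 8, Upf2 Cre against Upf2 mock gave −0.67 (limma adjusted p = 0.046). Without all libraries numbered 3, B2m fell by 0.60 in Upf2 Cre against Upf2 mock (limma adjusted p = 0.014), and was 0.53 higher in Upf2 Trp53 Cre than in Upf2 Cre (limma adjusted p = 0.038). In Upf2 Trp53 Cre the heavy chain H2-D1 thus rose while B2m did not pass the test, and the difference between them was not tested.

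Both transporter subunits were higher in Upf2 Cre than in Upf2 mock. Tap1 (ENSMUSG00000037321.17; chromosome 17, 34187553 to 34197225, plus strand), a subunit of TAP, had the largest log2 difference of the 10 genes. It ran from 3.48 through a median of 4.72 to 6.48 TPM in Upf2 Trp53 Cre, from 6.68 through 28.9 to 42.2 TPM in Upf2 Cre, and from 3.42 through 4.08 to 6.73 TPM in Upf2 mock. All 6 Upf2 Cre libraries lay above all Upf2 Trp53 Cre libraries, and 5 of them lay above all Upf2 mock libraries, the exception being replicate 3 at 6.68 TPM beside mock replicate 8 at 6.73 TPM. Tap1 rose by 2.14 ± 0.33 in Upf2 Cre against Upf2 mock (limma adjusted p = 0.00019), 2.26 above the median of all tested genes. In Upf2 Trp53 Cre it differed from Upf2 mock by 0.11 ± 0.33 (limma adjusted p = 0.87). The Upf2 Trp53 Cre group lay below Upf2 Cre, at a log2 difference of −2.03 ± 0.33 (limma adjusted p = 0.00063). Both calls held under every alternative tried, at 1.96 to 2.47 for Upf2 Cre against Upf2 mock and at −2.35 to −1.85 between the Cre groups.

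Tap2 (ENSMUSG00000024339.12; chromosome 17, 34203527 to 34216321, plus strand), the other subunit of TAP, ran from 6.03 through a median of 9.37 to 12.5 TPM in Upf2 Trp53 Cre. It ran from 5.73 through 12.8 to 23.96 TPM in Upf2 Cre and from 3.75 through 6.00 to 9.54 TPM in Upf2 mock. The groups overlapped, with 3 Upf2 Cre libraries (replicates 5, 8 and 9) above all Upf2 mock libraries. Tap2 rose by 0.92 ± 0.30 in Upf2 Cre against Upf2 mock (limma adjusted p = 0.023), 1.04 above the median of all tested genes. It differed by 0.54 ± 0.30 in Upf2 Trp53 Cre against Upf2 mock (limma adjusted p = 0.28) and by −0.37 ± 0.30 between the Cre groups (limma adjusted p = 0.38). The Upf2 Cre call was lost without any one of Upf2 Cre replicates 5, 8 and 9 or mock replicates 4 and 5, at 0.73 to 0.84 (limma adjusted p from 0.054 to 0.064), and with no filter on low values (limma adjusted p = 0.11).

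Tapbp (ENSMUSG00000024308.15; chromosome 17, 33915899 to 33929292, plus strand) encodes tapasin, which bridges TAP and the empty heavy chain. It ran from 33.1 through a median of 49.2 to 61.9 TPM in Upf2 Trp53 Cre, from 29.6 through 54.2 to 58.7 TPM in Upf2 Cre and from 27.2 through 30.8 to 50.6 TPM in Upf2 mock. The overlap came from replicate 3, which was the lowest library of both Cre groups and the highest of Upf2 mock. Tapbp rose by 0.51 ± 0.20 in Upf2 Cre against Upf2 mock (limma adjusted p = 0.046), and its difference of 0.53 ± 0.20 in Upf2 Trp53 Cre against Upf2 mock did not pass (limma adjusted p = 0.091). Without the libraries numbered 3 both passed, at 0.76 in each Cre group (limma adjusted p = 0.00053 in Upf2 Trp53 Cre and 0.00017 in Upf2 Cre). Leaving out replicate 3 of any one group let Upf2 Trp53 Cre pass, at 0.53 to 0.65 (limma adjusted p from 0.025 to 0.041). The Upf2 Cre call was lost without any one of Upf2 Cre replicates 4, 5, 6, 8 and 9, mock replicates 4, 5, 6 and 9, or Upf2 Trp53 Cre replicates 5, 6, 8 and 9, at 0.45 to 0.55 (limma adjusted p from 0.052 to 0.10). It was also lost with no filter on low values and with only the compared groups in the fit.

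**Figure D2:**
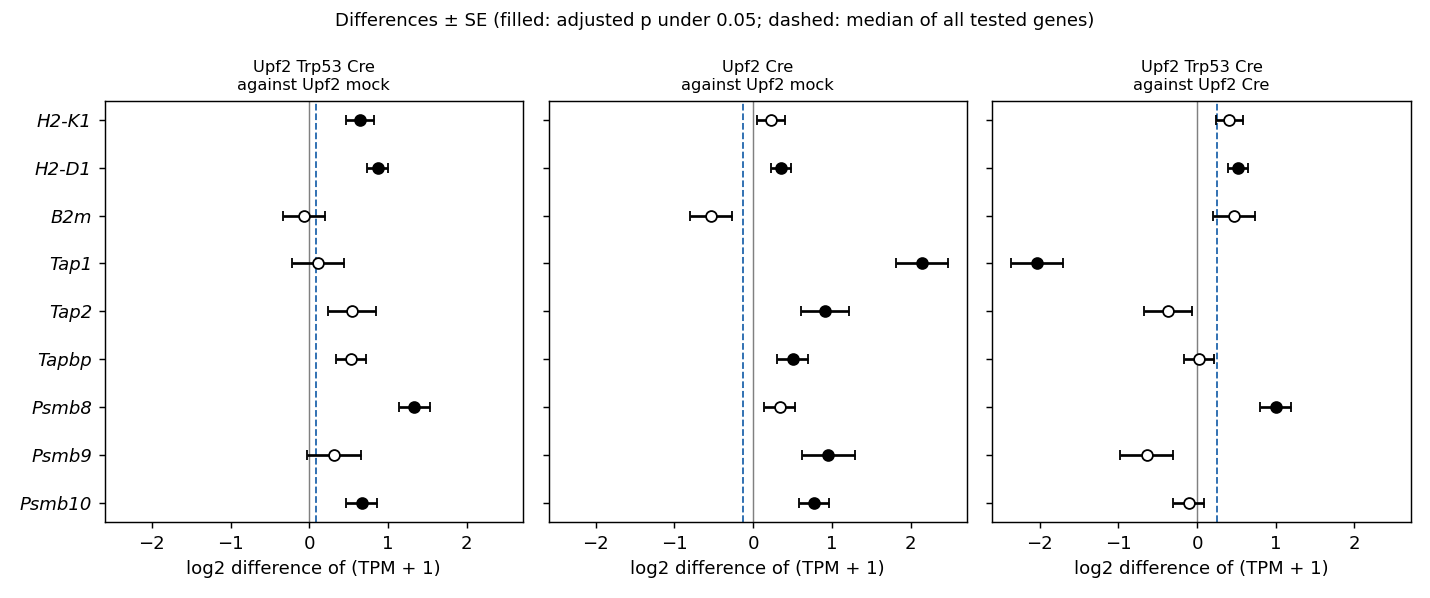
Log2 difference ± SE of the 9 tested genes in each comparison, filled where the limma adjusted p was under 0.05, with a dashed line at the median of all tested genes. Tap1 stands at 2.14 for Upf2 Cre against Upf2 mock and at −2.03 between the Cre groups, while Psmb8 stands at 1.33 for Upf2 Trp53 Cre against Upf2 mock and at 1.00 between the Cre groups.

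Of the induced proteasome subunits, Psmb8 was higher in Upf2 Trp53 Cre. Psmb8 (ENSMUSG00000024338.15; chromosome 17, 34197721 to 34201454, plus strand) encodes the chymotrypsin-like subunit of the immunoproteasome. It ran from 2.00 through a median of 4.48 to 4.99 TPM in Upf2 Trp53 Cre, from 0.755 through 1.46 to 2.46 TPM in Upf2 Cre and from 0.647 through 0.859 to 1.85 TPM in Upf2 mock. All Upf2 Trp53 Cre libraries lay above all Upf2 mock libraries, and the lowest of them, replicate 3, lay below Upf2 Cre replicate 3. Psmb8 rose by 1.33 ± 0.20 against Upf2 mock (limma adjusted p = 0.00012) and by 1.00 ± 0.20 against Upf2 Cre (limma adjusted p = 0.0052), or 1.25 and 0.75 above the median of all tested genes. Both calls held under every alternative that kept the gene, which a mean of at least 5 TPM did not. Upf2 Cre differed from Upf2 mock by 0.34 ± 0.20 (limma adjusted p = 0.18). H2-D1 and Psmb8 were the 2 of 9 tested genes whose Upf2 Trp53 Cre and Upf2 mock libraries did not overlap, against 7.92% of all tested genes. Between the Cre groups H2-D1 and Tap1 did not overlap, against 2.72% of all tested genes, and between Upf2 Cre and Upf2 mock 0 of 9 did not overlap, against 5.86%.

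Psmb9 (ENSMUSG00000096727.3; chromosome 17, 34181987 to 34187764, minus strand), the immunoproteasome subunit that replaces Psmb6, ran from 0.796 through a median of 1.69 to 2.53 TPM in Upf2 Trp53 Cre. It ran from 0.767 through 3.15 to 7.23 TPM in Upf2 Cre and from 0.609 through 0.842 to 1.77 TPM in Upf2 mock. The groups overlapped, since Upf2 Cre replicates 3 and 4 stayed under 1 TPM while replicates 8 and 9 reached 6.94 and 7.23 TPM. Psmb9 rose by 0.95 ± 0.34 in Upf2 Cre against Upf2 mock (limma adjusted p = 0.031), 1.08 above the median of all tested genes. It differed by 0.31 ± 0.34 in Upf2 Trp53 Cre against Upf2 mock (limma adjusted p = 0.60) and by −0.64 ± 0.34 between the Cre groups (limma adjusted p = 0.18). The rise was lost without any one of Upf2 Cre replicates 5, 8 and 9 or mock replicates 4, 5, 6 and 9, at 0.74 to 0.94 (limma adjusted p from 0.051 to 0.087). It was also lost with no filter on low values (limma adjusted p = 0.15) and with only the compared groups in the fit (limma adjusted p = 0.061), while without Upf2 Cre replicate 3 the difference between the Cre groups passed (−0.87, limma adjusted p = 0.038).

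Psmb9 and Tap1 are neighbours that face away from each other, and their gene models in GENCODE M21 share 212 bases. The labels name a stranded kit, but strand use in the quantification is not given in the sources used here, so reads from the shared stretch cannot be told apart. Within Upf2 Cre the same libraries stood at the ends for Tap1, Tap2 and Psmb9: replicates 3 and 4 were the lowest 2 and replicates 8 and 9 the highest 2 for all 3 genes. Psmb8 lies between Tap1 and Tap2 in the same block of 34335 bases, and in Upf2 Cre its highest library was replicate 3, the lowest of the group for its 3 neighbours.

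Psmb10 (ENSMUSG00000031897.9; chromosome 8, 105935735 to 105938444, minus strand), the trypsin-like subunit of the immunoproteasome, was far more abundant than Psmb8 and Psmb9 on the TPM scale. It ran from 68.2 through a median of 90.1 to 109.5 TPM in Upf2 Trp53 Cre, from 73.5 through 94.7 to 118 TPM in Upf2 Cre and from 42.8 through 48.7 to 85.7 TPM in Upf2 mock. Mock replicates 8 and 9 reached into the range of both Cre groups. Psmb10 rose by 0.66 ± 0.19 in Upf2 Trp53 Cre (limma adjusted p = 0.028) and by 0.77 ± 0.19 in Upf2 Cre (limma adjusted p = 0.0053) against Upf2 mock, or 0.58 and 0.90 above the median of all tested genes. Between the Cre groups it differed by −0.11 ± 0.19 (limma adjusted p = 0.70). The Upf2 Cre call held under every alternative tried. The Upf2 Trp53 Cre call was lost under median-ratio scaling (0.50, limma adjusted p = 0.15), quantile normalization (0.58, limma adjusted p = 0.065) and no filter (limma adjusted p = 0.072), and without any one of Upf2 Trp53 Cre replicates 4, 8 and 9 or mock replicates 3, 4, 5 and 6, at 0.59 to 0.65 (limma adjusted p from 0.052 to 0.072).

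Each induced subunit takes the place of a constitutive one, so the pairs were compared within each library. Psmb8 made up 0.733 to 1.83% of the summed TPM of Psmb8 and Psmb5 in Upf2 Trp53 Cre, 0.226 to 0.904% in Upf2 Cre and 0.192 to 1.00% in Upf2 mock. Psmb9 made up 0.111 to 0.332% of Psmb9 and Psmb6 in Upf2 Trp53 Cre, 0.0873 to 0.878% in Upf2 Cre and 0.080 to 0.278% in Upf2 mock. Psmb10 made up 19.9 to 37.6% of Psmb10 and Psmb7 in Upf2 Trp53 Cre, 20.995 to 54.8% in Upf2 Cre and 13.6 to 26.1% in Upf2 mock. Transcripts of the induced form were thus a small share for Psmb8 and Psmb9 in every library and a large share for Psmb10.

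**Figure D3:**
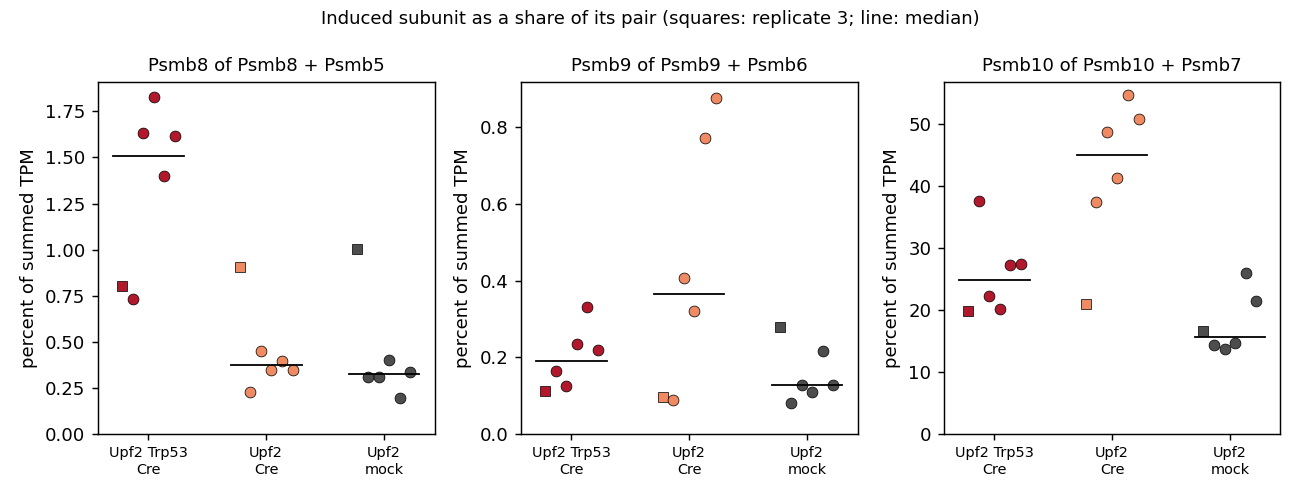
Each induced subunit as a percent of the summed TPM of itself and its constitutive counterpart, per library from 0 upward, with the group median as a line and squares for replicate 3. Psmb10 reached 54.8% of its pair in Upf2 Cre, while Psmb8 stayed at or under 1.83% and Psmb9 at or under 0.878% of theirs.

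Each log2 ratio was the difference between the log2(TPM + 1) values of the genes of a pair. For the low genes Psmb8 and Psmb9 it is therefore compressed, unlike the percent shares above. The mean log2 ratio of Psmb8 to Psmb5 was higher in Upf2 Trp53 Cre, by 1.05 against Upf2 mock (exact permutation p = 0.011, adjusted p = 0.043 over 12 tests) and by 1.20 against Upf2 Cre (exact permutation p = 0.0065, adjusted p = 0.039). That of Psmb10 to Psmb7 was higher by 1.75 in Upf2 Cre against Upf2 mock (exact permutation p = 0.0065, adjusted p = 0.039). It was higher by 0.68 in Upf2 Trp53 Cre against Upf2 mock (exact permutation p = 0.032, adjusted p = 0.078) and lower, at −1.07, in Upf2 Trp53 Cre against Upf2 Cre (exact permutation p = 0.024, adjusted p = 0.071), neither of which passed the adjustment. In Upf2 Cre both parts of this ratio moved, since Psmb10 rose and Psmb7 (145 ± 79.7 TPM in Upf2 Cre, 264 ± 32.3 in Upf2 mock; SD, n = 6) dropped by 0.98 as a log2 difference (limma adjusted p = 0.0031). The ratios of Psmb9 to Psmb6 and of H2-K1 to H2-D1 did not pass in any comparison (adjusted p from 0.31 to 0.73 by exact permutation over 12 tests). Without mock replicate 3, H2-K1 to H2-D1 passed against Upf2 mock, at −0.46 in Upf2 Trp53 Cre and −0.35 in Upf2 Cre (exact permutation, adjusted p = 0.013 each). The adjusted calls were narrow: Psmb8 to Psmb5 against Upf2 mock was lost without any one of mock replicates 4, 5, 6, 8 and 9 or Upf2 Trp53 Cre replicates 5, 6, 8 and 9 (0.91 to 1.08; exact permutation, adjusted p from 0.057 to 0.095). Psmb8 to Psmb5 between the Cre groups and Psmb10 to Psmb7 in Upf2 Cre were each at adjusted p = 0.052 by exact permutation without any one of mock replicates 4, 5 and 6 or Upf2 Trp53 Cre replicates 5, 6, 8 and 9. Psmb10 to Psmb7 between the Cre groups passed without Upf2 Cre replicate 3 (−1.35), mock replicate 3 (−1.07) or Upf2 Trp53 Cre replicate 4 (−1.23; exact permutation, adjusted p from 0.026 to 0.048).

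Nlrc5 (ENSMUSG00000074151.13; chromosome 8, 94434356 to 94527272, plus strand) encodes the class I transactivator, which binds class I promoters through the RFX complex. It reached 1 TPM in 4 libraries and so missed the minimum of 1 TPM in 6 libraries. It ran from 0.483 through a median of 0.987 to 1.28 TPM in Upf2 Trp53 Cre, from 0.376 through 0.811 to 1.03 TPM in Upf2 Cre and from 0.140 through 0.167 to 0.281 TPM in Upf2 mock. Every library of both Cre groups lay above every Upf2 mock library, and the Cre groups overlapped. The shares of genes without overlap given above cover tested genes only, so this separation has no such share beside it. In the fit with no filter on low values, Nlrc5 rose by 0.69 ± 0.12 in Upf2 Trp53 Cre (limma adjusted p = 0.0032) and by 0.55 ± 0.12 in Upf2 Cre (limma adjusted p = 0.014) against Upf2 mock. The Cre groups differed by 0.14 ± 0.12 (limma adjusted p = 0.76). These differences compress the ratio, because all levels lie near or under the pseudocount of 1. In the fit with no filter, 1809 of 55573 genes rose and 119 fell in Upf2 Trp53 Cre against Upf2 mock. For Upf2 Cre against Upf2 mock, 1912 rose and 1945 fell.

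Regulators of class I genes were read next. Of 22 tested class I regulators, 8 rose and 0 fell in Upf2 Trp53 Cre against Upf2 mock, 5 rose and 3 fell in Upf2 Cre against Upf2 mock, and 6 rose and 0 fell between the Cre groups. Among all tested genes, 10.4% rose and 1.09% fell in Upf2 Trp53 Cre against Upf2 mock, and 16.5% and 24.2% in Upf2 Cre. Between the Cre groups 11.8% rose and 2.46% fell, and these shares stand beside the main counts of every list below. Irf1, a direct activator of Tap1 and Psmb9, averaged 14.1 ± 3.49 TPM in Upf2 Trp53 Cre, 6.94 ± 3.23 in Upf2 Cre and 6.73 ± 1.20 in Upf2 mock (SD, n = 6). It rose by 0.94 in Upf2 Trp53 Cre against Upf2 mock and by 0.97 against Upf2 Cre (limma adjusted p = 0.0067 and 0.011). Tap1 was higher in Upf2 Cre than in Upf2 Trp53 Cre, and a link between the levels of Irf1 and Tap1 was not tested. Stat2 and Irf9, which carry interferon signals to the nucleus, rose by 0.95 and 1.47 in Upf2 Trp53 Cre against Upf2 mock (limma adjusted p = 0.0042 and 2.0e-05). Irf9 also rose by 0.75 in Upf2 Cre against Upf2 mock (limma adjusted p = 0.0053). The NF-kappa B subunit genes Relb and Nfkb2 rose in both Cre groups against Upf2 mock: Relb by 1.15 in Upf2 Trp53 Cre and 1.11 in Upf2 Cre (limma adjusted p = 0.00078 and 0.00094), and Nfkb2 by 0.68 and 0.98 (limma adjusted p = 0.011 and 0.00049). With median-ratio scaling, 5, 6 and 2 regulators rose in the same order of comparisons, where 6.40%, 20.2% and 2.00% of all tested genes rose. With the libraries numbered 3 left out, 9 rose and 0 fell, 6 rose and 7 fell, and 8 rose and 1 fell.

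Interferon-stimulated genes outside antigen presentation were higher in Upf2 Trp53 Cre than in either other group. Of 18 tested, 16 rose and 0 fell in Upf2 Trp53 Cre against Upf2 mock (median log2 difference 1.89), 5 rose and 1 fell in Upf2 Cre against Upf2 mock (median 0.29), and 16 rose and 0 fell between the Cre groups (median 1.69). Among these genes, Xaf1, Oasl2 and Ifit3 stayed at or under 0.787 TPM in every Upf2 Cre and Upf2 mock library. The filter let them in only through Upf2 Trp53 Cre. Their rises in that group, included in the counts and medians above, are therefore no support. The counts lacking the libraries numbered 3 were 17 rises, 7 rises and 1 fall, and 16 rises. Oasl1, an interferon-induced antiviral gene, averaged 19.5 ± 4.57 TPM in Upf2 Trp53 Cre, 2.38 ± 1.05 in Upf2 Cre and 0.213 ± 0.170 in Upf2 mock (SD, n = 6). Its log2 differences were 4.06 for Upf2 Trp53 Cre against Upf2 mock, 1.43 for Upf2 Cre against Upf2 mock and 2.63 between the Cre groups (limma adjusted p = 2.2e-11, 6.9e-05 and 1.3e-08). Cxcl10, a chemokine that draws T cells, rose by 4.62, 1.33 and 3.29 in the same comparisons (limma adjusted p = 1.0e-10, 0.00086 and 1.6e-08). In Upf2 Trp53 Cre against Upf2 mock, H2-K1, H2-D1, Psmb8 and Psmb10 rose, and Tap1, Tap2 and Psmb9 did not pass the test. A link of the class I genes to the other interferon-stimulated genes was not tested. Of 21 interferon genes in the table, 18 were listed at 0 in all 18 libraries, among them Ifnb1 and Ifng, and the highest value of the others was 1.22 TPM (Ifnz).

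**Figure D4:**
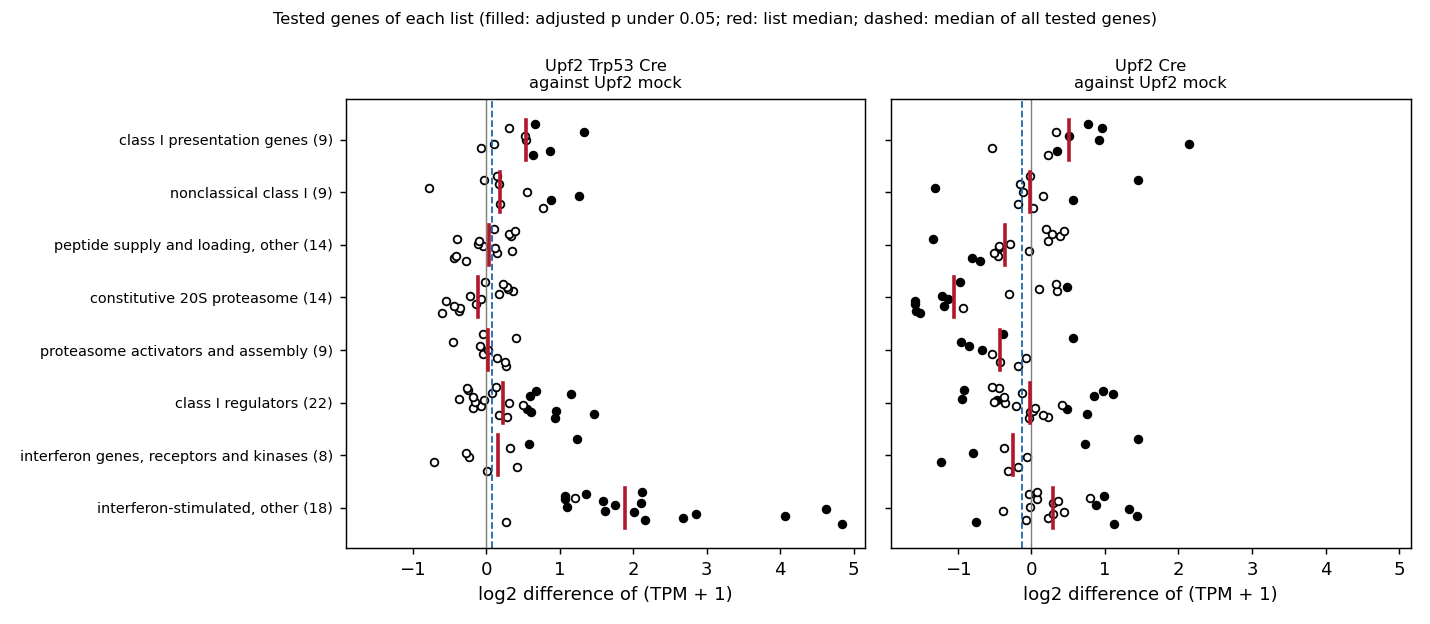
Log2 difference of each tested gene in 8 lists, for Upf2 Trp53 Cre (left) and Upf2 Cre (right) against Upf2 mock, filled where the limma adjusted p was under 0.05, with list medians in red and the median of all tested genes dashed. The constitutive 20S proteasome has a median of −0.11 on the left and −1.06 on the right, while the other interferon-stimulated genes have 1.89 on the left and 0.29 on the right.

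Of 8 tested interferon receptor and signalling genes, 2 rose and 0 fell in Upf2 Trp53 Cre against Upf2 mock, 2 rose and 2 fell in Upf2 Cre against Upf2 mock, and 1 rose and 0 fell between the Cre groups. With median-ratio scaling the counts were 1 rise and 1 fall, 2 rises and 2 falls, and 0 of 8. They were, with the libraries numbered 3 left out, 2 rises and 1 fall, 2 rises and 3 falls, and 3 rises. Socs3, a feedback inhibitor of cytokine signalling, rose by 1.23 in Upf2 Trp53 Cre and 1.44 in Upf2 Cre (limma adjusted p = 0.0083 and 0.0017), and the kinase gene Tyk2 rose by 0.59 and 0.73 (limma adjusted p = 0.021 and 0.0027). In Upf2 Cre against Upf2 mock, Jak1, the kinase shared by interferon receptors, fell by 0.80 (log2) and Ifngr1, a receptor chain for interferon gamma, fell by 1.24 (limma adjusted p = 0.00080 and 0.0051).

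Most constitutive proteasome genes were lower in Upf2 Cre than in Upf2 mock. Of 14 tested constitutive 20S proteasome genes, 0 passed in Upf2 Trp53 Cre against Upf2 mock (1 at an unadjusted limma p under 0.05), 8 fell and 1 rose in Upf2 Cre against Upf2 mock, and 5 rose and 0 fell between the Cre groups. Psma5, an alpha-ring subunit, fell by 1.59 (log2) and Psmb1, a beta-ring subunit, fell by 1.22 in Upf2 Cre against Upf2 mock (limma adjusted p = 0.0029 and 0.0021). Psmb5, the constitutive counterpart of Psmb8, was the gene that rose (0.49, limma adjusted p = 0.032). Median-ratio scaling gave 8 falls and 3 rises for Upf2 Cre against Upf2 mock and 1 rise between the Cre groups. Without the libraries numbered 3 the counts were 10 falls and 2 rises for Upf2 Cre against Upf2 mock and 9 rises between the Cre groups.

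Of 9 tested proteasome activator and assembly genes, 0 passed in Upf2 Trp53 Cre against Upf2 mock (1 at an unadjusted limma p under 0.05), 4 fell and 1 rose in Upf2 Cre against Upf2 mock, and 3 rose and 0 fell between the Cre groups. Psme2, a subunit of the interferon-induced PA28 activator, averaged 104 ± 10.4 TPM in Upf2 Trp53 Cre, 67.4 ± 25.8 in Upf2 Cre and 87.8 ± 13.5 in Upf2 mock (SD, n = 6), and was 0.69 higher in Upf2 Trp53 Cre than in Upf2 Cre (limma adjusted p = 0.022). With median-ratio scaling 0 of these genes passed between the Cre groups. In the fit lacking the libraries numbered 3, 2 rose in Upf2 Trp53 Cre against Upf2 mock, 5 fell and 1 rose in Upf2 Cre against Upf2 mock, and 5 rose between the Cre groups.

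Of 14 other tested genes of peptide supply and loading, 0 passed in Upf2 Trp53 Cre against Upf2 mock (1 at an unadjusted limma p under 0.05), 4 fell and 0 rose in Upf2 Cre against Upf2 mock, and 2 rose and 0 fell between the Cre groups. Calr and Canx, the lectin chaperones of the loading complex, fell by 0.70 and fell by 0.81 (log2) in Upf2 Cre against Upf2 mock (limma adjusted p = 0.0068 and 0.017). Blmh, a cytosolic peptidase, fell by 1.34 (log2, limma adjusted p = 0.0011), and Uggt1, which checks glycoprotein folding, fell by 0.44 (log2, limma adjusted p = 0.023). Both were higher in Upf2 Trp53 Cre than in Upf2 Cre, by 0.94 and 0.56 (limma adjusted p = 0.024 and 0.021). With median-ratio scaling, 0 genes of this list rose and 1 fell between the Cre groups. Leaving out the libraries numbered 3, 0 passed in Upf2 Trp53 Cre against Upf2 mock, 6 fell and 3 rose in Upf2 Cre against Upf2 mock, and 5 rose and 1 fell between the Cre groups. Erap1, the aminopeptidase that trims peptides in the endoplasmic reticulum, differed by −0.51 in Upf2 Cre against Upf2 mock (limma adjusted p = 0.080).

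Of 9 tested nonclassical class I genes, 2 rose and 0 fell in Upf2 Trp53 Cre against Upf2 mock, 2 rose and 1 fell in Upf2 Cre against Upf2 mock, and 1 rose and 0 fell between the Cre groups. Without the libraries numbered 3 the counts were 3 rises and 1 fall, 2 rises and 2 falls, and 6 rises and 1 fall. H2-Q4 averaged 15.2 ± 4.14 TPM in Upf2 Trp53 Cre, 6.36 ± 0.887 in Upf2 Cre and 5.63 ± 0.984 in Upf2 mock (SD, n = 6), and rose by 1.26 against Upf2 mock and 1.10 against Upf2 Cre (limma adjusted p = 5.8e-05 and 0.00056). H2-T10 averaged 1.33 ± 0.188 TPM in Upf2 Trp53 Cre, 0.874 ± 0.160 in Upf2 Cre and 0.260 ± 0.0823 in Upf2 mock, and rose by 0.89 and 0.57 in the Cre groups against Upf2 mock (limma adjusted p = 2.3e-05 and 0.0015). Its median was 0.828 TPM in Upf2 Cre and its highest value 0.403 TPM in Upf2 mock. H2-T10 thus passed the filter only through Upf2 Trp53 Cre, so its rise in that group is no support. Cd1d1, which presents lipids, fell by 1.32 (log2) in Upf2 Cre against Upf2 mock (limma adjusted p = 0.0053). Of the 2 tested class II genes, H2-DMa, which loads peptide on class II molecules, rose by 1.18 in Upf2 Cre against Upf2 mock (limma adjusted p = 0.0029), and H2-Ab1 differed by 0.65 (limma adjusted p = 0.055). In the other comparisons 0 of these 2 passed (0 and 1 at an unadjusted limma p under 0.05), while median-ratio scaling gave 2 rises in Upf2 Cre against Upf2 mock and 1 fall between the Cre groups, as did the fit without the libraries numbered 3.

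Markers of microglia, vascular cells and lymphocytes were low, and those of astrocytes and neurons were not. The 10 microglia and macrophage markers summed to 0.249 to 1.18 TPM in Upf2 Trp53 Cre, 0.107 to 0.627 in Upf2 Cre and 0 to 0.390 in Upf2 mock, and Aif1 and C1qa were at 0 in all 18 libraries. The 8 vascular markers summed to 2.26 to 5.26 TPM in Upf2 Trp53 Cre, 1.41 to 1.78 in Upf2 Cre and 1.08 to 1.31 in Upf2 mock, and Cdh5 was at 0 in all libraries of Upf2 Cre and Upf2 mock. The 8 lymphocyte markers summed to 0.911 to 1.56 TPM in Upf2 Trp53 Cre, 0.337 to 1.20 in Upf2 Cre and 0.188 to 0.895 in Upf2 mock, with Cd3g and Ms4a1 at 0 in all 18 libraries. Each sum had its highest median in Upf2 Trp53 Cre, at 0.879 TPM for microglia and macrophages, 4.23 for vascular cells and 1.21 for lymphocytes. In Upf2 Cre these medians were 0.327, 1.71 and 0.898 TPM, and in Upf2 mock 0.174, 1.22 and 0.530 TPM. The highest single values, all in Upf2 Trp53 Cre, were 0.649 TPM (Tmem119), 2.08 TPM (Flt1) and 1.44 TPM (Cd79a). The 6 astrocyte markers summed to 704 to 1239 TPM in Upf2 Trp53 Cre, 644 to 1403 in Upf2 Cre and 830 to 1613 in Upf2 mock, and against Upf2 mock 1 of the 6 fell in Upf2 Trp53 Cre and 4 fell in Upf2 Cre. The 8 neuron markers summed to 145 to 160 TPM in Upf2 Trp53 Cre, 85.1 to 201 in Upf2 Cre and 90.2 to 200.0 in Upf2 mock. Of the 4 neuron markers tested, 2 rose in Upf2 Trp53 Cre against Upf2 mock, where H2-K1, H2-D1, Psmb8 and Psmb10 rose, and 1 fell in Upf2 Cre against Upf2 mock. The 2 that rose, named after their values were seen, were Tubb3 (96.8 ± 12.2 TPM in Upf2 Trp53 Cre, 89.2 ± 53.5 in Upf2 Cre, 47.7 ± 32.6 in Upf2 mock) and Snap25 (4.35 ± 0.720, 1.85 ± 0.871 and 1.54 ± 0.590 TPM in the same groups; SD, n = 6). The other 2 tested, Map2 and Rbfox3, differed by −0.48 and −0.02 in Upf2 Trp53 Cre against Upf2 mock (limma adjusted p = 0.15 and 0.96). Map2 averaged 48.0 ± 9.55 TPM in Upf2 Trp53 Cre and 69.3 ± 22.6 in Upf2 mock (SD, n = 6). With median-ratio scaling 1 of the 4 rose and 1 fell in that comparison. Of the 10 neural progenitor markers, 1 (Slc1a3) fell in Upf2 Trp53 Cre against Upf2 mock, and 5 fell in Upf2 Cre. The part of these cells in the class I values was not tested.

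The nearest 3 tested protein-coding genes on each side of H2-K1, of the block from Psmb9 to Tap2, and of H2-D1 were read for local context. Of these 18 genes, 3 rose and 0 fell in Upf2 Trp53 Cre against Upf2 mock, 5 rose and 0 fell in Upf2 Cre against Upf2 mock, and 1 rose and 0 fell between the Cre groups. Over all tested genes 10.4%, 16.5% and 11.8% rose and 1.09%, 24.2% and 2.46% fell in the same order. H2-Q4, H2-Q7, H2-DMa and H2-Ab1 are among the 18 and were also counted in the lists above. The rises of H2-Q4 in Upf2 Trp53 Cre and of H2-DMa in Upf2 Cre thus repeat results already given. Brd2, a bromodomain gene 59353 bases from the block, rose by 1.59 and 1.27 in the Cre groups against Upf2 mock (limma adjusted p = 1.2e-07 and 6.9e-06). Nfkbil1, 26938 bases from H2-D1, rose by 1.87 and 1.88 (limma adjusted p = 4.3e-06 and 1.1e-05).

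The profile over all 18 libraries was compared with the mean standardised profile of the 9 tested genes, as a root mean square difference in SD units. Tapbp was the nearest of the 9 at 0.553 and B2m the farthest at 1.30, and the median over all other tested genes was 1.14. Each of the 9 genes is part of that mean profile and so is drawn towards it. Their values therefore cannot be set against those of other genes as a sign of likeness. The 6 nearest genes outside the set were Fosb at 0.445, Prkar1b at 0.465, Rundc3a at 0.466, Csdc2 at 0.467, Cers1 at 0.468 and Ormdl3 at 0.472. Ormdl3, a regulator of sphingolipid synthesis, rose by 1.20 in Upf2 Trp53 Cre and 1.36 in Upf2 Cre against Upf2 mock (limma adjusted p = 0.00053 and 0.00018). Fosb, a subunit of the AP-1 factor, rose by 0.80 and 0.62 (limma adjusted p = 0.0062 and 0.014). These 2 genes are described because of their likeness, so their differences are no separate result.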

How the data were processed

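The deposited table holds TPM per gene, made by the authors for 18 libraries of total RNA prepared with a stranded kit, per the labels. STAR and the mm10 build are named in the submitters' processing notes, and the quantification tool, its annotation and its strand setting are not given in the sources used here. Values were analysed as log2(TPM + 1) with limma 3.58.1 in R 4.3.3 (3 group means, empirical Bayes with a mean-variance trend, Benjamini-Hochberg adjustment over the 15216 genes that reached 1 TPM in 6 or more libraries, threshold 0.05). Ratios within a library and the levels of Upf2 and Trp53 were compared by exact two-sided permutation, 6 libraries against 6, where the smallest p is 0.0022. Tables, promoter searches and plots used Python 3.11.15, pandas 2.3.3, NumPy 2.4.6 and Matplotlib 3.10.9, and transcripts were aligned with BLAST 2.17.0. Coordinates are those of GENCODE M21 on GRCm38 (mm10). The fit was tested on simulated data. Labels name the replicates as biological but give no source animals, so p-values measure the spread between these cultures.

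The 10 genes, all lists and the set of 3 libraries numbered 3 were chosen with earlier results of these data known. Text names all 10 genes, fixed pathway genes such as Psmb5 and Irf1, genes with the smallest adjusted p of each list, the nearest 3 tested genes on each side, and the 6 genes of most similar profile. Alternatives were a pseudocount of 0.1, no filter, a mean filter of 5 TPM, scaling by median ratios, quantile normalization, the replicate number as a block, only the compared groups in the fit, and leaving out each library or the 3 numbered 3.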

Additional observations from a re-analysis of the deposited data

Results flagged for a closer look

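Single libraries far from the rest of their group were found for 3 genes, all in replicate 3. B2m had 325 TPM in Upf2 Cre replicate 3, against 93.8 to 156 TPM in the other libraries of that group. Nlrc5 had 0.281 TPM in Upf2 mock replicate 3, against 0.140 to 0.172 TPM in the others. Psmb8 had 1.85 TPM in Upf2 mock replicate 3, against 0.647 to 0.974 TPM in the others. Of 30 groups of 6 libraries examined, chance alone marks about 1 in 20.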

How the results depend on the processing

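TPM carry no read totals, so depth limits the precision of low genes (Nlrc5, Psmb8, Psmb9) by an unknown amount. Over the alternatives, 618 of the values of the 9 tested genes kept their direction and their side of the threshold, 53 lost the call, 14 gained it and 11 changed sign. None of the sign changes passed the test: B2m in Upf2 Trp53 Cre against Upf2 mock ran from −0.20 to 0.078 over single libraries left out, and Tap1 there was −0.0206 with median-ratio scaling and −0.0118 with quantile normalization. Tapbp between the Cre groups was −0.25 with median-ratio scaling, −0.14 with quantile normalization, −0.0023 without the libraries numbered 3 and −0.11 to 0.13 over single libraries left out. The number of called genes for Upf2 Trp53 Cre against Upf2 mock (1752) was 2970 with the replicate block and 3554 without the libraries numbered 3. For Upf2 Cre against Upf2 mock (6192) it was 3857 with no filter, 8054 with the replicate block and 8955 without the libraries numbered 3. Between the Cre groups (2165) it was 1032 with median-ratio scaling, 1131 with quantile normalization, 1309 with no filter, 4445 with the replicate block, 5590 without the libraries numbered 3 and 598 to 5514 over single libraries left out. Same-numbered libraries correlated at −0.17 to 0.74, over 0.1 in 14 of 18 pairs, against 31 of 90 pairs of different numbers, and 11 of 18 libraries correlated best with their own number. This hints at pairing, but the labels state none and not every pair passed 0.1, so the block stayed an alternative. Under it B2m fell by 0.53 in Upf2 Cre against Upf2 mock (limma adjusted p = 0.020) and H2-K1 was 0.41 higher in Upf2 Trp53 Cre than in Upf2 Cre (limma adjusted p = 0.037). With the replicate block, the ratios of Psmb8 to Psmb5 (1.05 against Upf2 mock, 1.20 between the Cre groups) and Psmb10 to Psmb7 (1.75 in Upf2 Cre) were at adjusted p = 0.125 by exact sign-flip permutation, but 6 pairs allow no p under 0.031 before adjustment, so this says little about them. Without the libraries numbered 3, Psmb10 to Psmb7 between the Cre groups was −1.26, and H2-K1 to H2-D1 was −0.45 in Upf2 Trp53 Cre and −0.34 in Upf2 Cre against Upf2 mock, all passing. With a pseudocount of 0.1, Psmb8 to Psmb5 in Upf2 Cre against Upf2 mock was 0.087. Over single libraries left out, Psmb8 to Psmb5 ran from 0.91 to 1.25 in Upf2 Trp53 Cre against Upf2 mock, −0.32 to 0.047 in Upf2 Cre against Upf2 mock and 1.11 to 1.37 between the Cre groups. Psmb10 to Psmb7 ran from 1.60 to 2.03 in Upf2 Cre against Upf2 mock and −1.35 to −0.91 between the Cre groups, H2-K1 to H2-D1 from −0.46 to −0.15 in Upf2 Trp53 Cre and −0.35 to −0.047 in Upf2 Cre against Upf2 mock, and Psmb9 to Psmb6 from −0.018 to 0.21 in Upf2 Trp53 Cre against Upf2 mock. The cause of these shifts was not tested.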
